A study of Drosophila melanogaster with 50 samples.

Results

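The Jonah and trypsin genes of Drosophila melanogaster encode serine proteases that digest dietary protein in the gut. The set was chosen by symbol and holds every gene whose FlyBase symbol starts with Jon and a digit or ends in Try. This gave 27 genes, of which 16 are Jonah genes and 11 are trypsin genes, among 17875 genes listed in the ovary tables and 17612 listed in the embryo tables. All 27 are listed in all 5 gene tables. They lie on the arms 2L (3 genes), 2R (12), 3L (7) and 3R (5), and the 11 trypsin genes form a cluster at positions 11336840 to 11357537 of 2R in dm6. The set was proposed with the genotype contrast of embryo RNA in view. The columns that hold that contrast are the study's own comparison and were not used, so nothing below says whether a gene differed in RNA between genotypes.

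The study asked what loss of the histone H3K9 demethylase Kdm3 in the female germline does to chromatin, small RNAs and progeny. Kdm3 was knocked down by an shRNA expressed in germ cells from the nosGAL4 driver (Kdm3 GLKD), and the ovaries of these females were set against ovaries of control sisters without the knockdown. Embryos were progeny of Kdm3 GLKD females or of w GLKD females. In w GLKD females the shRNA targets the white gene, which is not needed in the germline. Ovary RNA and ovary small RNA were sequenced in 3 numbered replicate libraries per genotype, and a further small RNA library per genotype, without a replicate number, was not analysed here on its own. Embryo RNA was sequenced at 3 to 5 h, and embryo small RNA at 0 to 2 h and at 3 to 5 h, in 2 libraries per genotype. Chromatin immunoprecipitation of ovaries covered H3K9me2 and H3K9me3 with 3 libraries per genotype and Rhino with 2. Ovaries contain germ cells and somatic follicle cells, whereas the driver acts in germ cells only.

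Jonah genes are a family of chymotrypsin-like proteases of the larval and adult midgut, and the trypsins of this set lie in a single cluster of tandem genes. Both are made by midgut cells as inactive precursors that are secreted into the gut lumen and activated by cleavage, and both use a catalytic triad of histidine, aspartate and serine. Rhino is a germline variant of the heterochromatin protein HP1 that binds H3K9me3 at dual-strand piRNA clusters, and piRNAs are small RNAs that silence transposons in the germline.

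The coding sequences of several members are nearly the same, which bears on every value below because short reads from such genes cannot be told apart. The windows below cover the codons of the catalytic serine in 6 Jonah genes. They are read on the coding strand from the dm6 genome of RefSeq, and capitals mark the 6 codons of the conserved motif around that serine.
Jon99Cii, chr3R:29923919-29923966: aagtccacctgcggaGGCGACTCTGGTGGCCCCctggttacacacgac
Jon99Ciii, chr3R:29922863-29922910: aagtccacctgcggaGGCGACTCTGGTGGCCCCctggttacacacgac
Jon99Fi, chr3R:30489615-30489662: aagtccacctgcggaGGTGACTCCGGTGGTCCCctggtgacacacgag
Jon99Fii, chr3R:30487229-30487276: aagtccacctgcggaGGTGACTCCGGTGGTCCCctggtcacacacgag
Jon25Biii, chr2L:4950101-4950148: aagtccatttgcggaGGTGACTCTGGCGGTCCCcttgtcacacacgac
Jon65Aiv, chr3L:6039918-6039965: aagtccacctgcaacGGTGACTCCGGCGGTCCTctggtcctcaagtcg

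The windows of Jon99Cii and Jon99Ciii had 0 differing bases of 48, and those of Jon99Fi and Jon99Fii had 1. Jon99Cii and Jon25Biii differed at 7 bases and Jon99Cii and Jon65Aiv at 17. Over the whole coding sequence, Jon99Cii and Jon99Ciii differed at 3 of 795 aligned bases, an identity of 99.6%. Jon99Fi and Jon99Fii were 98.1% identical, and Jon66Ci and Jon66Cii 85.0%. The coding sequences of gammaTry and deltaTry were 100% identical, and alphaTry and betaTry were closest to gammaTry at 88.8% and 87.7%. The median identity was 64.2% over the 120 pairs of Jonah genes, 53.6% over the 55 pairs of trypsin genes and 50.5% over the 176 pairs of a Jonah with a trypsin gene. The translated members had 252 to 280 residues, and 26 of the 27 held the serine motif in full, the exception being kappaTry. Of the 27 genes, 22 have a single exon, and their spans run from 810 to 1397 bp.

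The share of 26-base windows in the exons that occur once on the 6 chromosome arms measures how much of a gene a short read can be placed on. It was at least 80% for 17 members. It was 0% for gammaTry, 4.33% for deltaTry, 6.93% for Jon99Cii, 39.6% for Jon99Ciii, 41.0% for Jon99Fii, 42.4% for Jon99Fi, 51.8% for betaTry and 54.9% for alphaTry, and 71.5% and 71.4% for Jon66Ci and Jon66Cii. With 29-base windows it was 0% for gammaTry, 4.35% for deltaTry and 8.39% for Jon99Cii. For these 10 genes a value of a single gene may include reads of its copies.

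Levels are given as base means. A base mean is the authors' average of a gene's normalized counts, taken across the libraries of both genotypes together. No value per library is in these tables, so a base mean has no SD and no n here, and neighbours in an order of levels cannot be said to differ. To compare genes within a table the base mean was divided by the exon length in kb. To compare tables, which were normalized separately, each gene was given its percentile among all genes listed.

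In RNA of 3- to 5-h embryos the family had a median base mean of 19.6 over its 27 members, against 42.7 over all genes listed. At a base mean of at least 10, 15 of 27 members (55.6%) were counted, against 61.6% of all genes listed. At 0 stood 1 member (3.70%), against 13.0% of all genes listed. The Jonah genes ran from 0 to 84.8 with a median of 33.3, and the trypsin genes from 2.34 to 33.7 with a median of 9.84. In percentiles of base mean per kb the median member stood at 45.5, and the highest member at 59.5. The median was 52.0 over the Jonah genes and 41.5 over the trypsin genes.

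Jon65Aiv had the highest level in embryo RNA, with a base mean of 84.8, or 93.8 per kb. Jon99Cii followed at a base mean of 77.4, or 89.8 per kb, and its near copy Jon99Ciii had a base mean of 51.4, or 41.4 per kb. Jon99Fii had a base mean of 61.2, or 67.0 per kb, Jon25Biii 54.2, or 65.5 per kb, and Jon65Aiii 47.3, or 54.0 per kb. These genes lie at 4 separate loci on 3 chromosome arms. Lower at the same loci stood Jon65Ai with a base mean of 4.17, Jon65Aii with 0.81 and Jon99Ci with 7.37. Jon66Cii was listed at 0 and Jon66Ci at 0.89. Among the trypsin genes, alphaTry had a base mean of 33.7, zetaTry 26.7 and lambdaTry 20.9 in embryo RNA, and betaTry, which lies beside alphaTry, 2.34.

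In ovary RNA, 14 of 27 members had a base mean of at least 10, against 59.2% of all genes listed, and the median base mean was 10.4 against 40.0. The order was led by Jonah genes. Jon25Biii had a base mean of 144, or 174 per kb, Jon99Cii 141, or 164 per kb, Jon65Aiv 138, or 153 per kb, Jon99Ciii 187, or 150.5 per kb, and Jon99Fii 95.8, or 105 per kb. The highest of these stood at the 60.1 percentile, so no member was among the more abundant RNAs of the ovary. The trypsin genes lay between 3.16 for gammaTry and 28.8 for alphaTry. Jon66Ci and Jon66Cii were listed at 0 (7.41% of members), against 12.5% of all genes listed. Jon25Bii, with a base mean of 35.0 in embryo RNA, had 0.16 in ovary RNA.

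Across the 27 members, ovary RNA and embryo RNA per kb had a Spearman correlation of 0.59 (Pearson r of 0.61 on log2 values), against 0.76 over the 17547 genes listed and placed in both. The correlation was 0.79 over the 16 Jonah genes and -0.04 over the 11 trypsin genes. These are descriptions across genes, several of which share reads with a copy, and genes are not replicates.

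**Figure D1:**
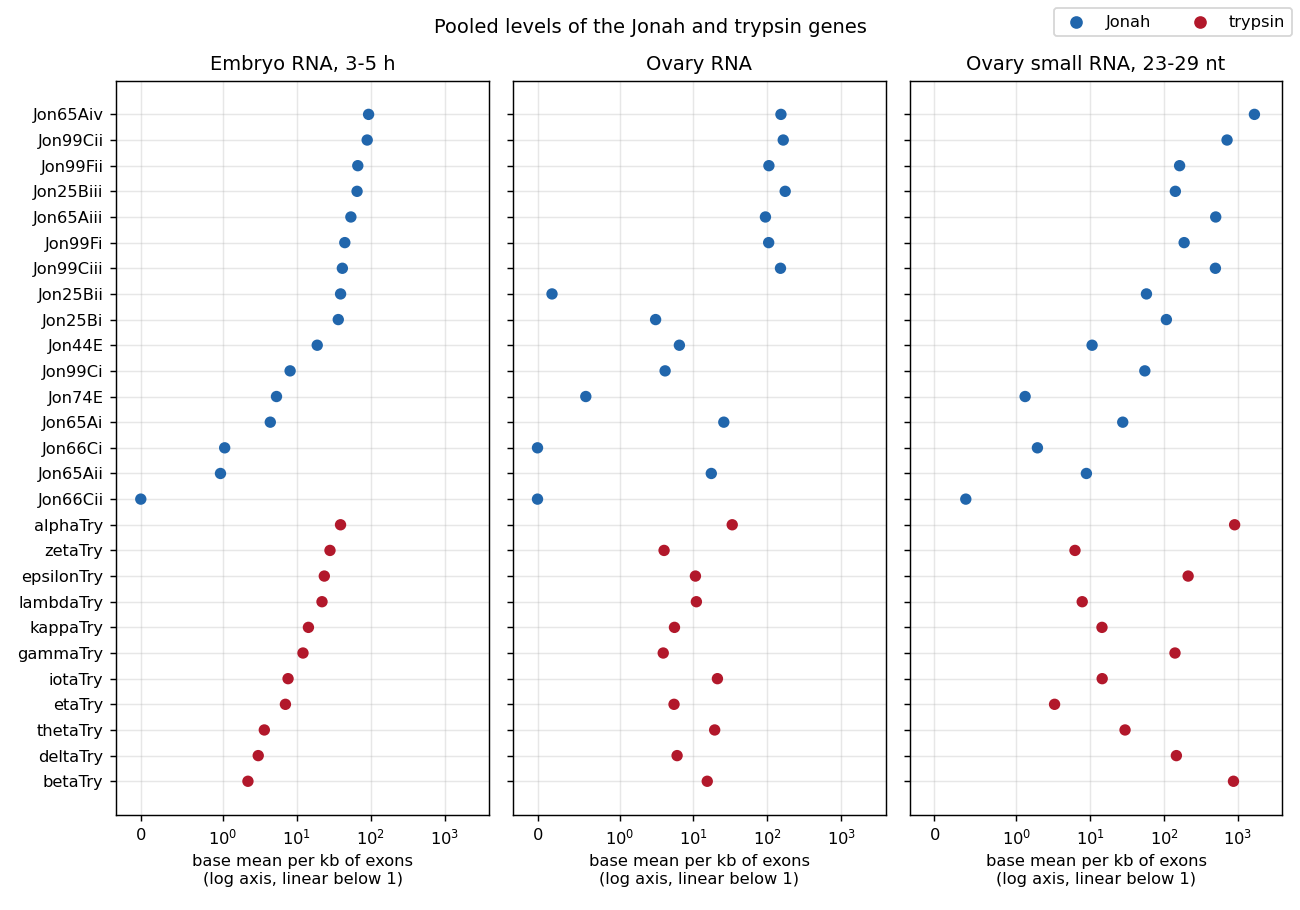
Base mean per kb of exons of each member (points, on a log axis that is linear below 1) in embryo RNA at 3 to 5 h, ovary RNA and ovary small RNA. Each point is the authors' mean over the libraries of both genotypes. Jonah genes are blue and trypsin genes red, ordered by embryo RNA within each family, and in ovary small RNA Jon65Aiv, alphaTry, betaTry and Jon99Cii stand highest.

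In ovary small RNA, reads of 23 to 29 nt assigned to genes, the family stood much higher among genes than in ovary RNA. At a base mean of at least 10, 20 of 27 members were counted, against 39.7% of all genes listed, and the median base mean was 51.6 against 4.48. The median member stood at the 93.3 percentile of base mean per kb in ovary small RNA and at the 43.1 percentile in ovary RNA. All 27 members had a higher percentile in small RNA than in RNA, against 48.3% of all genes. At or above the 95th percentile stood 13 members, 8 Jonah and 5 trypsin genes, against 5% of all genes by construction, and the percentiles of these 13 in ovary RNA ran from 32.4 to 60.1. That limit was chosen after the values were seen.

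Jon65Aiv had the highest level, with a base mean of 1510 in ovary small RNA, or 1670.1 per kb. It was followed by alphaTry with 775, or 901 per kb, betaTry with 931, or 869 per kb, Jon99Cii with 613, or 712 per kb, and Jon65Aiii with 437, or 499.8 per kb. Jon99Ciii had a base mean of 614 and epsilonTry, which lies between alphaTry and betaTry, 176. The trypsin genes at the far end of the cluster were lower in ovary small RNA, with 3.00 for etaTry, 5.90 for zetaTry and 7.42 for lambdaTry. Jon66Cii had 0.32, Jon74E 1.19 and Jon66Ci 1.62.

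Part of these values rests on sequence that is not found once in the genome. The 17 members with at least 80% of windows found once had a median percentile of 88.2 in ovary small RNA, and 5 of these 17 stood at or above the 95th percentile. Jon65Aiv and Jon65Aiii, with 99.4% and 99.8% of windows found once, were among them. The study describes these counts as reads matching uniquely. In ovary small RNA gammaTry nevertheless had a base mean of 114, deltaTry 119 and Jon99Ciii 614, whereas all 3 were listed at 0 in both embryo small RNA tables. How reads with several matches were treated in each table was not tested.

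In embryo small RNA the family had low counts at both ages. No member reached a base mean of 10 at 0 to 2 h or at 3 to 5 h, against 13% and 10.6% of all genes listed. At 0 to 2 h the median member stood at the 23.2 percentile of base mean per kb, that of genes listed at 0. At that age 16 of 27 members (59.3%) were listed at 0, 13 of them Jonah genes, against 46.5% of all genes. Among these 16 were gammaTry, deltaTry, Jon99Cii, Jon99Ciii, Jon99Fi, Jon99Fii, Jon66Ci and Jon66Cii, each with less than 80% of windows found once. Over the members with at least 80% found once, the median percentile at 0 to 2 h was 51.5. The highest member was thetaTry with a base mean of 2.91, or 2.78 per kb. Next stood alphaTry with 2.46 per kb, zetaTry with 2.24, epsilonTry with 2.04 and Jon25Bi with 1.08. At 3 to 5 h 7 of 27 members (25.9%) were listed at 0, against 42.7% of all genes. The median base mean at that age was 1.28 over the members and 0.39 over all genes, and the median member stood at the 69.7 percentile of base mean per kb. With the minimum lowered to 1, 15 of 27 members (55.6%) were counted, against 41.5% of all genes. The highest levels per kb at 3 to 5 h were 5.60 for alphaTry, 4.43 for Jon65Aiv, 3.95 for Jon99Cii, 3.88 for Jon25Bii and 3.70 for Jon99Fii. Jon65Aiv, the leading member of the ovary small RNA table, was listed at 0 at 0 to 2 h and had a base mean of 4.00 at 3 to 5 h.

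Over the 16 Jonah genes, ovary small RNA and ovary RNA per kb had a Spearman correlation of 0.80 (Pearson r of 0.82 on log2 values), and ovary small RNA and embryo RNA one of 0.92 (Pearson r of 0.89). Over the 11 trypsin genes the same correlations were 0.49 (Pearson r of 0.42) and -0.06 (Pearson r of -0.10). Over all genes they were 0.81 and 0.62. Near-identical copies count as separate points in these descriptions.

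**Figure D2:**
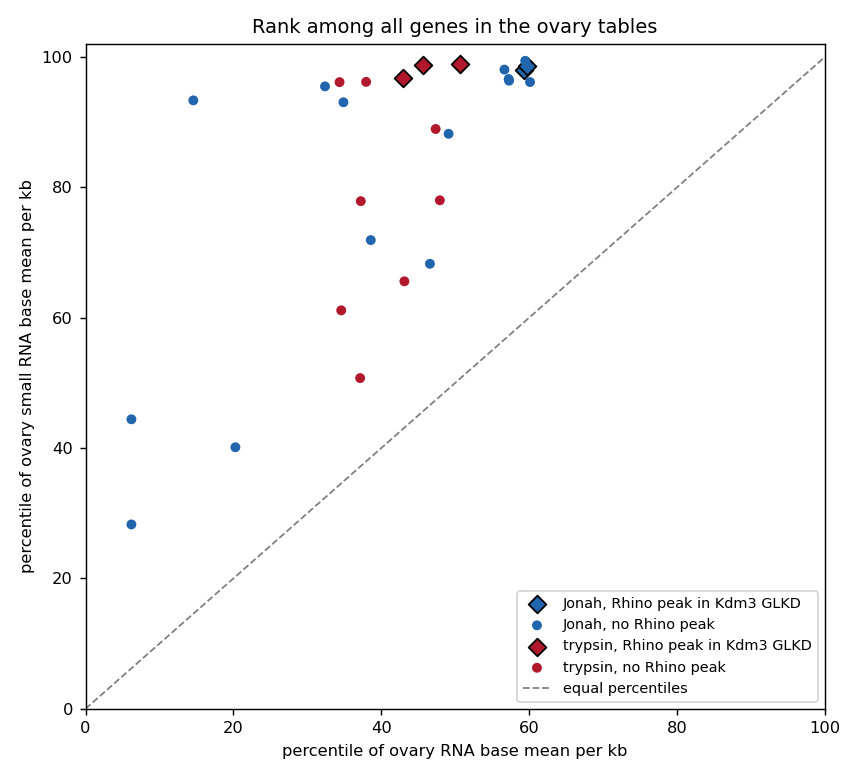
Percentile of base mean per kb in ovary small RNA (vertical axis) against the percentile in ovary RNA (horizontal axis) for the 27 members. Diamonds are the 5 members under a Rhino peak of Kdm3 GLKD ovaries and circles the others. All members lie above the dashed line of equal percentiles.

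The peak lists allow a comparison of genotypes. There is 1 list per mark and genotype, with no list per library, so a gene under a peak in Kdm3 GLKD and not in control ovaries is a difference between 2 lists, without a replicate check. A gene was counted when its annotated span shared at least 1 bp with a peak. Members are short genes, so their counts are read against all genes on the 6 arms and against the 2700 genes of the 4 large autosomal arms whose span lies within the members' range.

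H3K9me2, the mark that Kdm3 removes, lay over 11 of 27 members (40.7%) in Kdm3 GLKD ovaries and over 1 of 27 (3.70%) in control ovaries. Among all genes on the arms the shares were 35.6% in Kdm3 GLKD and 16.2% in control ovaries, and among genes as long as the members 18.2% and 7.52%. In Kdm3 GLKD ovaries the members' share was thus close to that of all genes and above that of genes of their length. With only peaks of a −log10 q of at least 5 it was 14.8% (4 of 27), against 19.1% of all genes. A peak in Kdm3 GLKD without one in control was seen at 10 of 27 members (37.0%), against 22.9% of all genes.

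The 11 members lay under 7 peaks. The trypsin cluster had 6 of its 11 genes under 3 of these peaks, which covered alphaTry, epsilonTry and betaTry together (fold over input of 1.71, −log10 q of 5.25), gammaTry (fold 1.60, −log10 q 3.79), and deltaTry with iotaTry (fold 1.51, −log10 q 3.05). Jon66Ci and Jon66Cii shared a peak of fold 1.60. Jon25Bii had a peak of fold 1.40 and Jon74E one of 1.36. The median fold of the whole H3K9me2 list was 1.56 in Kdm3 GLKD and 1.75 in control ovaries. Jon25Biii was the exception in that it was marked in both genotypes, with a fold of 2.24 in Kdm3 GLKD and of 2.02 in control ovaries, where the peaks covered 811 and 827 bp of the gene. It is also the member with the highest ovary RNA level per kb. No 26-base window under the peak at gammaTry occurs once in the genome, so that peak cannot be told apart from signal at deltaTry or at the neighbouring trypsin-like genes CG30031 and CG30025. Both of these fall outside the symbol rule, and both also lay under H3K9me2 peaks in Kdm3 GLKD ovaries only, with folds of 1.60 and 1.53.

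H3K9me3 peaks lay over 0 of 27 members in Kdm3 GLKD ovaries and 0 of 27 in control ovaries. Among all genes the shares were 17.3% and 10.9%, and among genes as long as the members 5.11% and 4.33%. All genes with an H3K9me3 peak in Kdm3 GLKD and not in control ovaries made up 9.01%.

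Rhino peaks lay over 5 of 27 members (18.5%) in Kdm3 GLKD ovaries and over 0 of 27 in control ovaries. Among all genes on the arms the shares were 3.1% and 0.297%, and among genes as long as the members 1.93% and 0.148%. All genes with a Rhino peak in Kdm3 GLKD and not in control ovaries made up 2.9%. The 5 members are not independent, because they share 3 peaks at 2 loci. With peaks of a fold of at least 2, 3 members remained, against 0.809% of all genes. These 3, alphaTry, epsilonTry and betaTry, lie under a single peak.

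**Figure D3:**
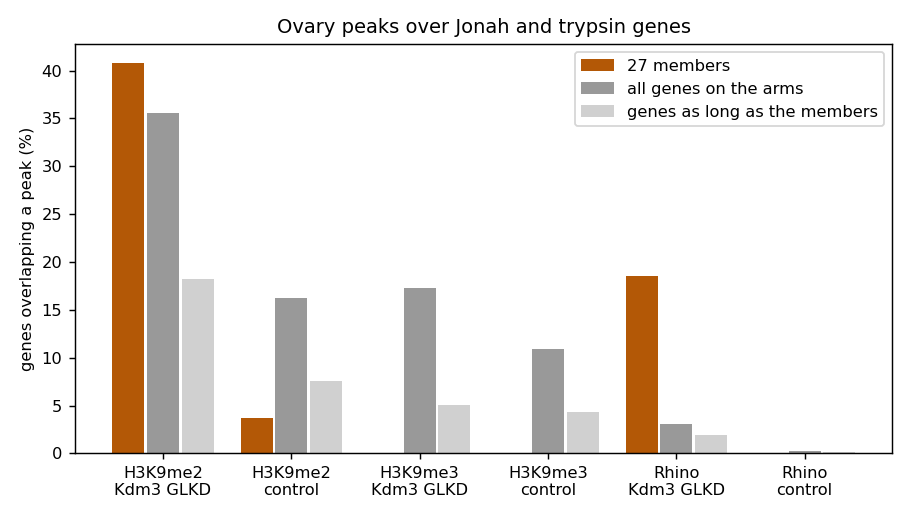
Share of genes that overlap a peak by at least 1 bp in ovaries, for each mark in Kdm3 GLKD and in control ovaries. Orange bars are the 27 members, dark grey bars all genes on the 6 arms and light grey bars genes as long as the members. The members' bars for Rhino are 18.5% in Kdm3 GLKD and 0 in control ovaries, and both H3K9me3 bars of the members are at 0.

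The Rhino peak of the trypsin cluster, at chr2R:11344895-11347030, was 2136 bp wide, with a fold over input of 2.40 and a −log10 q of 18.0, and ranked 313 of 1882 peaks by q. It covered 225 bp of alphaTry, all 830 bp of epsilonTry and 706 bp of betaTry, and it lay within the H3K9me2 peak over the same genes. Of its 26-base windows 85.3% occur once in the genome. In control ovaries the nearest Rhino peak was 545770 bp from betaTry. The genes alphaTry and betaTry had the highest ovary small RNA levels of the trypsin genes, with base means of 775 and 931, and epsilonTry had 176. In embryo RNA the same genes had base means of 33.7, 2.34 and 19.6. All of these base means are pooled over both genotypes, so whether small RNA went with the Rhino peak was not tested. Jon65Aiv, with a base mean of 1510 in ovary small RNA, lay 34917 bp from the nearest Rhino peak in Kdm3 GLKD ovaries.

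A pair of INE-1 transposon copies lies in the cluster on either side of gammaTry and CG30031, outside the member genes. They carried H3K9me3 in both genotypes, with folds of 1.61 and 1.66 in Kdm3 GLKD and of 3.07 and 3.04 in control ovaries. H3K9me2 peaks lay on the same copies in control ovaries, with folds of 1.50 and 1.61, and on neither copy in Kdm3 GLKD ovaries, where the H3K9me2 peaks lay on the genes. How much of the INE-1 sequence occurs once in the genome was not computed, so signal there may come from other copies. These folds are from single lists without a replicate check, and the lists differ in their range. The median fold was 1.56 for H3K9me3 in Kdm3 GLKD and 1.77 in control ovaries, and 1.75 for H3K9me2 in control ovaries. The control H3K9me2 peaks on the copies had a −log10 q of 3.56 and 5.30, against a list median of 7.91. Whether signal on the copies differed between genotypes was not tested. The H3K9me3 peak nearest to a member of the cluster was 363 bp from gammaTry in Kdm3 GLKD and 307 bp in control ovaries.

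**Figure D4:**
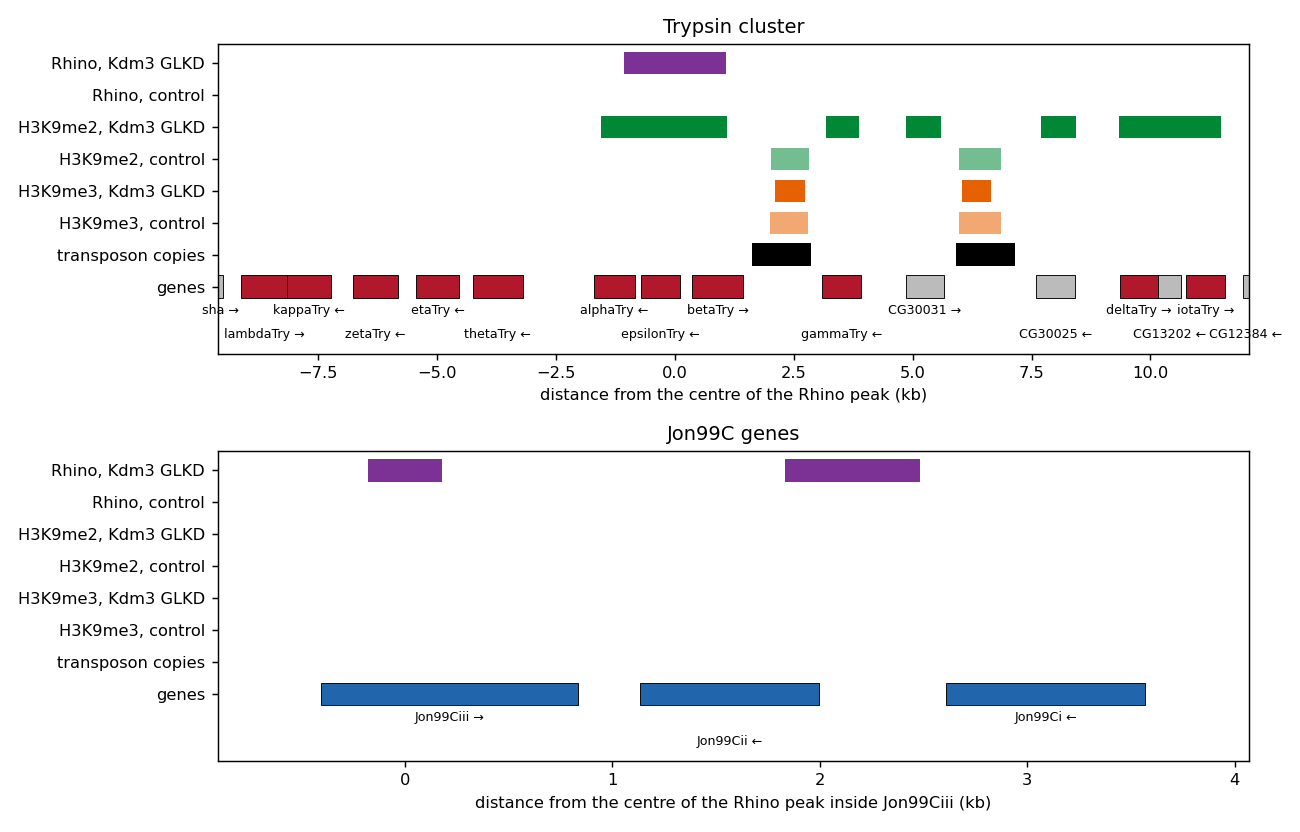
Peaks of each mark in Kdm3 GLKD and control ovaries, transposon copies (black) and genes (red trypsin, blue Jonah, grey others, arrows for strand) at the trypsin cluster and the Jon99C genes, by distance in kb from the centre of a Rhino peak. In the cluster, Kdm3 GLKD ovaries have 5 H3K9me2 peaks over genes and control ovaries have theirs on the transposon copies, and at the Jon99C genes only Rhino in Kdm3 GLKD has peaks.

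The Jon99C locus had a pair of weaker Rhino peaks in Kdm3 GLKD ovaries. The peak inside Jon99Ciii, at chr3R:29922443-29922797, lay within its single exon and was 355 bp wide, with a fold of 1.60 and a −log10 q of 4.87, and ranked 1289 of 1882. The other, at chr3R:29924453-29925102, was 650 bp wide, with a fold of 1.45 and a −log10 q of 2.73, ranked 1706, and covered 163 bp at the 5′ end of Jon99Cii and the sequence upstream of it. Jon99Ci lay 124 bp from it. Neither H3K9me2 nor H3K9me3 had a peak over these genes in either genotype. The nearest H3K9me2 peak was 12337 bp from Jon99Cii in Kdm3 GLKD and 28078 bp in control ovaries. Among the 5 members under a Rhino peak, 3 also lay under an H3K9me2 peak, against 8 of the 22 others. These 3 are alphaTry, epsilonTry and betaTry, which share a single Rhino peak and a single H3K9me2 peak, so they are not independent. The share of all genes under a Rhino peak that also lay under an H3K9me2 peak was not computed.

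The stretch below lies inside the Rhino peak of Jon99Ciii. It is part of the coding sequence, and capitals mark the codons of the catalytic aspartate and the isoleucine after it. The whole stretch also occurs, base for base, in Jon99Cii.
Jon99Ciii, chr3R:29922548-29922667, plus strand: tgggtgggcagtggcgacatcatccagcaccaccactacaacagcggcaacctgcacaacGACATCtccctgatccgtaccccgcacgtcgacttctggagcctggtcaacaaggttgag

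Of the 26-base windows under that peak 7.88% occur once in the genome, and of its 100-base windows 11.7% hold such a window. Signal there cannot be assigned to Jon99Ciii rather than Jon99Cii. For the peak at the 5′ end of Jon99Cii the shares were 72.8% and 82.6%, because it reaches into upstream sequence.

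That upstream sequence is shown because the Rhino peak covers it, with the same region of its copy Jon99Ciii and of Jon65Aiv, the leading member in small RNA, for comparison. Each runs over the 150 bases before the annotated start, on the gene's strand. Capitals mark the letters GATAA on either strand, the core of sites for GATA factors, which act in the midgut, and TATAAA on the gene's strand.
Jon99Cii, chr3R:29924616-29924765, minus strand: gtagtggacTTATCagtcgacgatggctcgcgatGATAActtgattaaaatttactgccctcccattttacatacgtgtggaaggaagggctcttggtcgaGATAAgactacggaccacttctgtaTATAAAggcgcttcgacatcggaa
Jon99Ciii, chr3R:29922066-29922215, plus strand: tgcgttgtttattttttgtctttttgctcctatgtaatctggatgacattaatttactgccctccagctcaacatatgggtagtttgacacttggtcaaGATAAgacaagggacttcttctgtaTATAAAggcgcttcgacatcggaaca
Jon65Aiv, chr3L:6039005-6039154, plus strand: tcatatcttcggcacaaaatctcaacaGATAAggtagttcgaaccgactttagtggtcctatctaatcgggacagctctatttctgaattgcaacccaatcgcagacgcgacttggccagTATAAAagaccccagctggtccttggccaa

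The letters GATAA occurred on either strand in the 250 bases before the start of 26 of 27 members (96.3%), against 50.3% of 13945 protein-coding genes. The letters TATAAA occurred on the gene's strand 45 to 15 bases before the start in 18 of 27 members (66.7%), 13 of them Jonah genes, against 8.81% of protein-coding genes. Both motifs contain the letters ATAA and were counted separately, and a match is a description of these letters only.

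Genes outside the set place these levels. Of all genes listed, 61.6% had a base mean of at least 10 in embryo RNA, 59.2% in ovary RNA and 39.7% in ovary small RNA. Of 19 other digestive enzymes of the gut (amylases, maltases, lysozymes and a lipase), 6 had at least 10 in embryo RNA, 9 in ovary RNA and 15 in ovary small RNA. The median percentile of the 19 was 87.3 in ovary small RNA and 34.3 in ovary RNA. The highest in embryo RNA were Mal-A5 with a base mean of 1682, Mal-A3 with 97.9 and Mal-A2 with 34.1. Of 11 serine proteases that act in egg and embryo patterning or immunity, 9 had at least 10 in embryo RNA, 10 in ovary RNA and 5 in ovary small RNA, with median percentiles of 56.6 in ovary RNA and 62.5 in ovary small RNA. They were led in embryo RNA by ea, which cleaves the Toll ligand precursor, with 530.1, by Sp7 with 305 and by gd with 94.2.

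The lists that check the tissues and look for other cells gave these levels. Of 6 genes listed as midgut markers, all 6 had a base mean of at least 10 in embryo RNA, against 61.6% of all genes listed. Whether each of these 6 is confined to the midgut was not tested. Their base means were 5203 for srp, 3609 for fkh, 854 for hkb, 409 for GATAe, 99.4 for mex1 and 38.0 for Npc1b. Per kb, mex1 and Npc1b stood at the 58.5 and 39.3 percentiles of embryo RNA. In ovary RNA 3 of the 6 reached 10, against 59.2% of all genes listed, and srp had 2069, mex1 21.2 and GATAe 3.45. All 5 early zygotic genes, such as sna with 3482, were above 10 in embryo RNA. In ovary RNA 2 of these 5 were above 10, namely twi with 1433 and zen with 49.8, and sna was listed at 0. All 4 germline markers found and all 5 follicle cell markers were above 10 in ovary RNA, where osk, a germline marker, had 56255 and Yp2, a follicle cell marker, 63543. In embryo RNA Yp2 had 5.09, and 0 of the 5 follicle cell markers reached 10. Of 5 fat body markers 3 reached 10 in ovary RNA and 1 in embryo RNA, namely apolpp with 27311, and Lsp2 and Fbp2 had 0.51 and 2.80 in embryo RNA. Of 5 muscle markers all 5 reached 10 in ovary RNA and 4 in embryo RNA, where Mhc had 6207. In ovary small RNA the median percentiles per kb were 99.0 for follicle cell, 90.3 for germline and 86.0 for muscle markers. Their medians in ovary RNA were 97.9, 92.5 and 63.0. For midgut, fat body and early zygotic markers the medians were 50.9, 43.3 and 27.4 in ovary small RNA. In ovary RNA the same lists had 31.2, 35.3 and 18.3. All of these values rest on means over both genotypes. Whether cells of the gut or another tissue were more numerous in a genotype was thus not tested. Fewer cells of a type cannot be told apart from less RNA per cell.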

How the data were processed

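The authors counted RNA-seq reads, and 23- to 29-nt small RNA reads described as matching uniquely, per gene, and the deposited tables give a normalized mean signal (base mean) over the libraries of both genotypes of a comparison. These tables also hold the authors' fold changes, standard errors, test statistics and p-values, which were not used. For ChIP, the authors mapped reads with BWA 0.7.17.4, removed duplicates with Picard 2.18.2.1 and called peaks against input with MACS2 2.1.1.20160309.6, in the broad mode for both histone marks and as narrow peaks for Rhino. The deposited lists give a fold ratio over input and a −log10 q-value per peak. How libraries were combined is not given in the sources used here, and depth per library is not in these files.

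Gene spans and exons came from the Ensembl BDGP6 annotation, whose arms have the lengths of dm6. Of 17875 ovary identifiers 17810 were placed, and of 17612 embryo identifiers 17547. Background counts used 18164 genes on the 6 arms, without transposon copies. Coding sequences were aligned globally with Biopython 1.88. Overlap and percentile functions were tested on simulated data. The members and gene lists were chosen with earlier results of these data known. Values are given for Jon99Cii, the 5 members highest per kb in each table and every member under a peak, and members named as low values or neighbours were chosen after their values were seen. From each further list the genes highest in embryo RNA are named, except for markers named as defining a tissue. Alternatives were the base mean minimum, the gene set of the percentiles, division by length, the overlap and the peak threshold. No tests were made, because no value per library is in these files.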

Additional observations from a re-analysis of the deposited data

How the results depend on the processing

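No paired analysis was possible because no value per library is in the tables or peak lists, and leaving out a library or changing the normalization was not run for the same reason. With a base mean minimum of 1, the members counted were 24 of 27 in embryo RNA, 23 in ovary RNA, 5 in embryo small RNA at 0 to 2 h and 15 at 3 to 5 h, against 78.1%, 75.7%, 41.2% and 41.5% of all genes in the same order. With a minimum of 100 they were 0 in embryo RNA, 4 in ovary RNA and 12 in ovary small RNA, against 43.6%, 45.7% and 9.54%. Among protein-coding genes only, the median percentile was 37.5 in embryo RNA and 35.6 in ovary RNA. Without division by length it was 84.0 in ovary small RNA and 61.8 in embryo small RNA at 3 to 5 h. Over members with at least 80% of windows found once, an alternative added after seeing the data, it was 88.2 in ovary small RNA and 51.5 in embryo small RNA at 0 to 2 h. With peaks of a −log10 q of at least 5, 4 members lay under H3K9me2 and 3 under Rhino in Kdm3 GLKD, against 19.1% and 1.88% of all genes, so that the members' H3K9me2 share of 14.8% was below that of all genes. With a fold of at least 2 the counts were 1 and 3, against 3.44% and 0.809%. With at least 50% of the span covered, 2 members lay under Rhino in Kdm3 GLKD, against 0.859%. At each of these stricter settings the members under Rhino lie under the same single peak of the trypsin cluster. With spans widened by 1000 bp, 3 members lay under H3K9me3 in Kdm3 GLKD and 3 in control, against 21.7% and 17.0%, and 4 under H3K9me2 in control ovaries, against 26.1%. The settings on Rhino in control ovaries left the count at 0. The small RNA base means of the embryo tables lie below 5 for every member, so an order among them rests on few reads.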

Other observations

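Of the 19 other digestive enzymes, all but Mal-A5 had a higher percentile per kb in ovary small RNA than in ovary RNA. Among all genes 48.3% did. Mal-A5 stood at the 92.0 percentile in ovary small RNA and at 92.8 in ovary RNA. Amy-p and Amy-d are amylases that digest starch. Their base means were 355 and 325 in ovary small RNA, and 72.4 and 47.3 in ovary RNA. They stood at the 96.8 and 96.7 percentiles per kb in ovary small RNA, and at 52.1 and 49.9 in ovary RNA. The lysozyme genes LysB, LysC, LysD and LysE had 68.6, 68.1, 77.0 and 48.5 in ovary small RNA. In ovary RNA they had 1.52, 0.32, 13.1 and 0.16. Their percentiles per kb were 95.6, 97.3, 96.3 and 94.8 in ovary small RNA, and 30.7, 25.5, 49.5 and 16.4 in ovary RNA. LysP was low in both, with 0.12 in ovary small RNA and 0.18 in ovary RNA, at the 23.4 and 16.6 percentiles per kb. These genes were named after their values were seen, and how much of the Amy and Lys sequence is shared between copies was not computed. Of the 19 other digestive enzymes, 5 stood at or above the 95th percentile of ovary small RNA and none did in ovary RNA, and 1 of the 19 (5.26%) lay under a Rhino peak in Kdm3 GLKD and 0 in control ovaries, against 3.1% and 0.297% of all genes.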
